A study of Mus musculus with 6 samples.

Results

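Glycolysis and the response to low oxygen were followed through 31 genes in mouse bone marrow macrophages. Of these, 18 encode glycolytic enzymes and transporters, and 13 encode the oxygen-regulated factor HIF-1α, its regulators or genes that it activates. They were chosen by name, and the mutant was compared with the wild type within each pair of same-numbered arrays. A gene was represented by the probe set with the highest mean intensity over the 6 arrays, among probe sets that the platform annotation gives exactly 1 gene symbol. By this rule 28 of the 31 genes were represented, and Gpi1, Eno1 and Bnip3l were not. Eno2 and Egln3 were too dim for the filter, and Gapdh had only control probe sets, which left 25 genes among the 10372 genes tested.

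The cells were macrophages of C57BL/6 background from TNFR1-/-R2-/- mice, which lack both TNF receptors. They had been infected with retrovirus for a chimeric receptor, TNFR1 outside the cell and RANK in the membrane and inside, and selected with puromycin (2 ug/ml) for 3 days. RANK is the receptor through which macrophages become osteoclasts, the cells that resorb bone. Wild-type arrays (n = 3) came from cells with an intact RANK part and mutant arrays (n = 3) from cells whose IVVY motif in RANK carried inactivating mutations. Both groups were grown with 10% heat-inactivated FBS and had M-CSF (44 ng/ml) and TNFα (10 ng/ml) for 24 hours, so TNF drove the receptor in both. Cells without TNF were not analysed here. Each Affymetrix mouse array held RNA pooled from 6 dishes. The arrays came from 3 independent assays, and same-numbered arrays are taken here as 1 assay, since their deviations correlated, and the labels do not say whether these used different mice. Where they did not, the p-values measure only the spread between preparations. The age of the mice, and whether the cells kept RANK of their own, are not given in the labels either.

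Glycolysis splits glucose into pyruvate in the cytosol and makes ATP without oxygen. Glucose enters through carriers such as GLUT1, is trapped by hexokinase, committed by phosphofructokinase and cleaved into trioses, and the pyruvate formed can leave as lactate. HIF-1α is destroyed in oxygenated cells after prolyl hydroxylases of the EGLN family mark it. When it is stable it binds the letters ACGTG or GCGTG in gene promoters and raises most glycolytic genes together with genes of vessel growth, mitophagy and collagen modification. In macrophages, inflammatory signals also raise HIF-1α when oxygen is present, and osteoclast formation and resorption draw on both glycolysis and respiration.

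Promoter sequences show how common the HIF letters are among these genes. In the RefSeq promoter table (GRCm38.p6), the 250 bases before each annotated start were searched for ACGTG or GCGTG on either strand. A gene counted if any of its starts had a match. This held for 15 of 18 glycolytic genes and for 11 of the 11 HIF genes listed there. Over all 27025 genes of the table the share was 41.5%. Counted by start, 20 of 26 glycolytic and 11 of 15 HIF starts had a match, against 38.6% of all starts. Counted separately, ACGTG was present for 9 glycolytic and 8 HIF genes against 18.5% of all genes, and GCGTG for 10 and 8 against 30.9%. A gene with both counted in each. Base composition was not matched in these shares. The letters ACGTG overlap the E-box CACGTG, which other factors bind, and CACGTG was present for 2 glycolytic and 2 HIF genes against 6.86% of all genes. Bnip3l and Ndrg1 had no entry. Below are the 250 bases before the start of Pgk1 and before the first listed start of Ldha. Both genes were higher in the mutant in pair 1 and lower in pairs 2 and 3. The second listed start of Ldha, not shown, held 1 GCGTG and no ACGTG. Also shown are those of Adm and Ankrd37, which both read highest on wild-type array 3. Capitals mark ACGTG and GCGTG or their reverse complements CACGT and CACGC, and all sequences run 5′ to 3′ on the gene's strand.
Pgk1, chrX:106186850-106187099, plus strand: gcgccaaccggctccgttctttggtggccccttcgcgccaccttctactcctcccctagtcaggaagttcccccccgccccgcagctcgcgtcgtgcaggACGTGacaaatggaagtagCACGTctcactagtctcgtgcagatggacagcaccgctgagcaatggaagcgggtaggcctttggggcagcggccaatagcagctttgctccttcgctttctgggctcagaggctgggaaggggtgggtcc
Ldha, chr7:46845554-46845803, plus strand: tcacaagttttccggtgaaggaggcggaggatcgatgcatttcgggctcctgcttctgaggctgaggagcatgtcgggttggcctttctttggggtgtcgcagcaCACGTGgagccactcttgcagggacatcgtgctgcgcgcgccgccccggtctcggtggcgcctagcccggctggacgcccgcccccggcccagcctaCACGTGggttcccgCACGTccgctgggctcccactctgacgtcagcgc
Adm, chr7:110627407-110627656, plus strand: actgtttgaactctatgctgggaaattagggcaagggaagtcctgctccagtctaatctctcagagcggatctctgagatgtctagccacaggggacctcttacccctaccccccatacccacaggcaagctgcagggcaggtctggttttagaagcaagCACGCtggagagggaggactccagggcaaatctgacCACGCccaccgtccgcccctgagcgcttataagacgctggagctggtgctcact
Ankrd37, chr8:45999851-46000100, minus strand: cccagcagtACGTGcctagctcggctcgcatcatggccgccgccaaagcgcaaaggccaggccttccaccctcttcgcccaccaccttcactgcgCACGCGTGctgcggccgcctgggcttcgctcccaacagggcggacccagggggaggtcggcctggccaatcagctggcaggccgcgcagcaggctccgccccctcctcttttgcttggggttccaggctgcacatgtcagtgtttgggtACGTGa
The Pgk1 sequence held the letters at 150 and 131 bases before the start, the Adm sequence at 90 and 54. In the Ldha sequence 4 of the 5 matches form 2 CACGTG palindromes, which read as ACGTG on both strands. A match is a description of the letters and shows no binding.

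No gene of either list differed between the mutant and the wild type beyond the spread between arrays. Of the 25 genes tested, 0 passed limma with Benjamini-Hochberg adjustment over all 22497 probe sets kept, where percent called was 0 for all probe sets as well. The smallest limma adjusted p among the 25 was 0.99998. The osteoclast markers Mmp9 and Acp5, with log2 differences of -4.88 and -3.54, were not called either (limma, adjusted p = 0.99998). A lack of calls therefore does not show that the groups were equal. Before adjustment, 0 of the 25 were under 0.05, against 0.88% of all probe sets (0.649% lower and 0.231% higher). A limma fit that blocked on the assay also called 0 of the 25, with a smallest adjusted p of 0.859. There the adjusted p was 0.18 for Mmp9 and 0.29 for Acp5. In that fit 0 of the 25 and 5.29% of all probe sets were under 0.05 before adjustment. In 0 of the 25 genes did the groups separate without overlap, against 1.96% of all genes lower and 1.36% higher in the mutant. Bulk RNA cannot tell fewer cells of a type from less RNA per cell.

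The precision of these values depended on the pairing. The standard errors (SE) of the difference on the log2(intensity + 16) scale ran from 0.16 to 0.75 in the limma fit without a block and from 0.074 to 0.59 with it. Assay differences were large, and the arrays of 1 assay resembled each other. With the block, the 95% interval of the difference lay within 2-fold in either direction for 23 of the 25 genes, the exceptions being Adm and Ndrg1, and within 1.5-fold for 16. Without the block it lay within 2-fold for 15. These bounds are for the brightest probe set on the log2(intensity + 16) scale. That scale narrows the intervals of dim genes such as Ankrd37, so they do not bound the fold change of the intensity there.

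**Figure D1:**
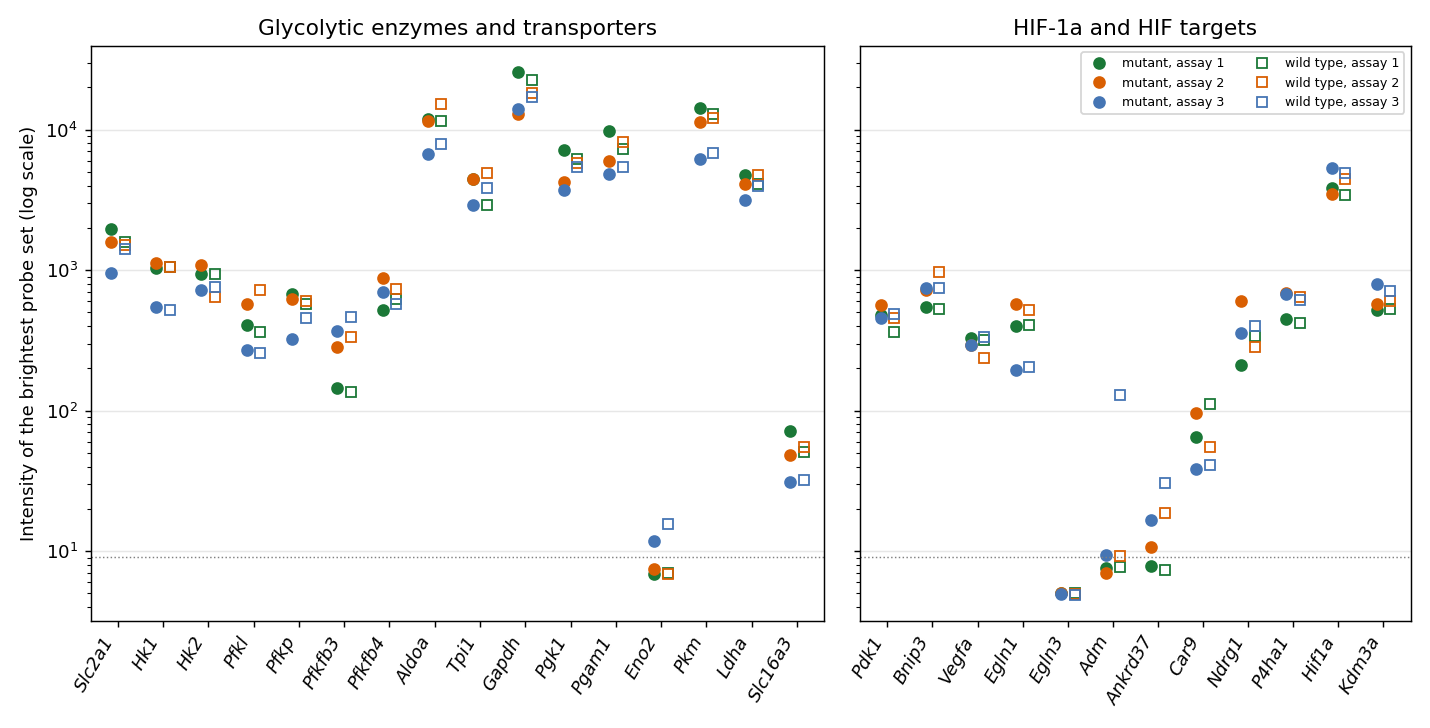
Intensity (log scale) of the brightest probe set of each measured gene on the 6 arrays, filled circles for the mutant and open squares for the wild type, coloured by assay. The dotted line is the mean of the array medians. Symbols of 1 colour lie close together for most genes, Adm stands out on wild-type array 3 at 129, and the Egln3 and Eno2 symbols lie below or near the dotted line.

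The glycolytic genes shared a pattern across the pairs of arrays rather than a direction. The medians of the 14 glycolytic genes tested were 0.18 in pair 1, -0.13 in pair 2 and -0.20 in pair 3 (mutant minus wild type, log2 scale), and -0.050 for the mean of the pairs. Over all 10372 genes the pair medians were -0.001, 0.015 and 0.001. The mutant array was higher for 12 of the 14 genes in pair 1, for 5 in pair 2 and for 3 in pair 3. Of the 14 genes, 8 were higher in pair 1 and lower in pairs 2 and 3, an order found for 11.2% of all genes. Higher in pairs 1 and 2 and lower in pair 3 were 3 glycolytic and 2 HIF genes, against 15.4% of all genes, and higher in pairs 1 and 3 and lower in pair 2 were 1 and 2, against 8.16%. These orders were picked out after the values were seen and were not tested. No glycolytic gene was lower or higher in every pair, against 12% and 14.5% of all genes.

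**Figure D2:**
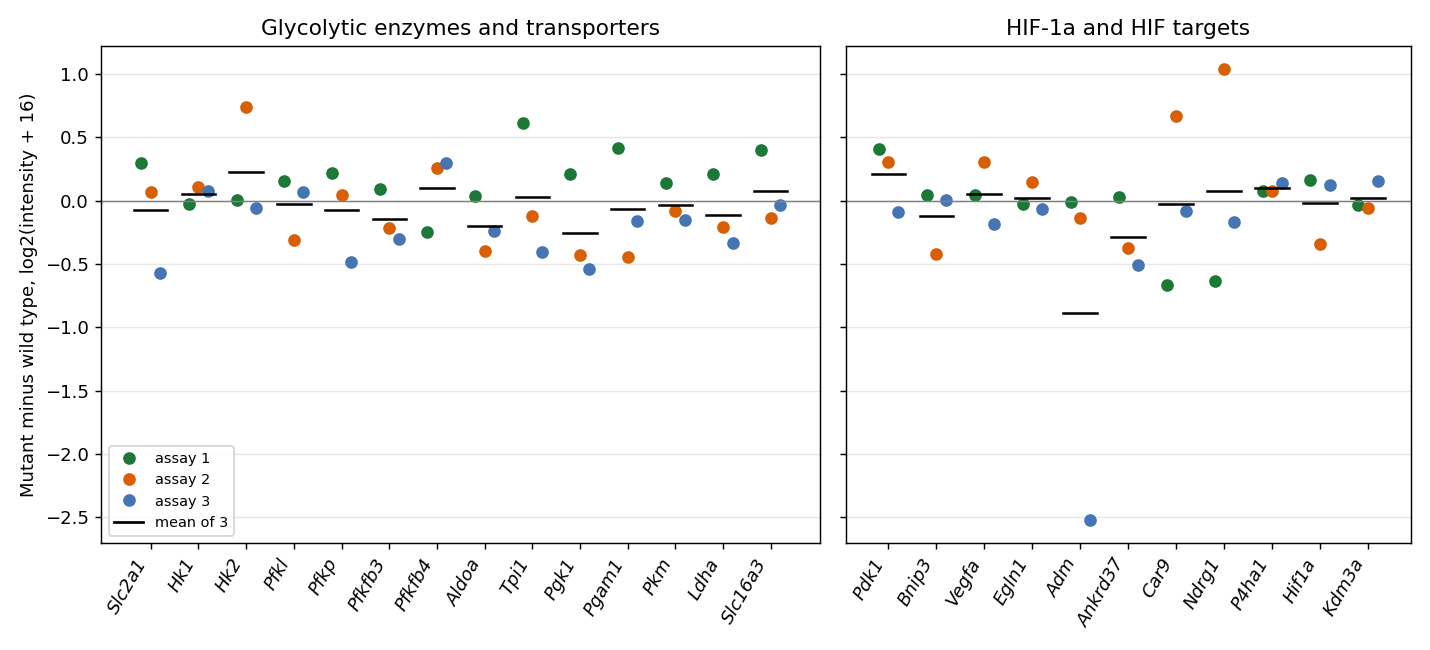
Difference between mutant and wild type in each assay (points) and the mean of the 3 (bars) on the log2(intensity + 16) scale for the 25 genes tested. Most glycolytic genes have the point of assay 1 above 0 and those of assays 2 and 3 below it, while the points of the HIF genes lie on both sides, with Adm at -2.52 in assay 3.

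Entry of glucose and its phosphorylation showed no common direction. Slc2a1, which encodes the glucose carrier GLUT1, read 1965, 1583 and 952 on mutant arrays 1, 2 and 3 and 1599, 1509.8 and 1426 on wild-type arrays 1, 2 and 3. Mutant array 3 was the lowest and mutant array 1 the highest of the 6, and the mean difference was -0.071 ± 0.28 SE on the log2 scale. In pair 2 this probe set differed by 0.068, whereas its 2 other probe sets went the opposite way, with differences of -0.15 and -0.20. In pair 3 those gave -0.55 and -0.83. Hk2, the inducible hexokinase that sits on mitochondria, read 941, 1085 and 722 in the mutant and 941, 643 and 754 in the wild type. Only pair 2 differed, by 0.74. Without the block Hk2 ranked first by p among the glycolytic genes (log2 difference 0.23 ± 0.21 SE), and with the block Aldoa did. Hk1, the hexokinase found in most cells, read 1039.6, 1128 and 547 in the mutant and 1059, 1046 and 517 in the wild type. Its pairs were within 0.11 of each other on the log2 scale while both arrays of assay 3 were far below the rest.

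The phosphofructokinase step is where glycolysis is committed. Pfkl, the liver-type subunit, read 407, 576 and 269 in the mutant and 364, 719 and 256 in the wild type. Pfkp, the platelet-type subunit, read 677, 627 and 323 in the mutant and 578, 606 and 458 in the wild type. In both genes the 2 arrays of assay 3 were the lowest of the 6, and the groups overlapped. Pfkfb3 and Pfkfb4 make and break fructose 2,6-bisphosphate, the activator of phosphofructokinase. Pfkfb3 read 144, 284 and 371 in the mutant and 135, 333 and 462 in the wild type, so that it was lowest in assay 1 and highest in assay 3 in both groups. Pfkfb4 read 521, 876 and 703 in the mutant and 622, 731 and 569.9 in the wild type, the opposite signs to most glycolytic genes, lower in pair 1 and higher in pairs 2 and 3. The log2 differences of these 4 genes lay between -0.14 and 0.10, with SEs of 0.22 to 0.54.

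On their brightest probe sets, the enzymes of the lower part of the pathway gave the common order most clearly. Aldoa, the aldolase that cleaves fructose bisphosphate, read 11822, 11477 and 6752 in the mutant and 11553, 15145 and 7969 in the wild type. The differences were 0.033, -0.40 and -0.24 in pairs 1, 2 and 3 (log2 difference -0.20 ± 0.33 SE). All 5 of its probe sets were lower in pairs 2 and 3. In pair 1 they went both ways, from -0.15 to 0.074. Pgk1, phosphoglycerate kinase, the first ATP-making step, read 7134, 4274 and 3707 in the mutant and 6173, 5771 and 5395 in the wild type. Mutant array 1 was the brightest and mutant arrays 2 and 3 the dimmest of the 6, so the mutant arrays lay on both sides of all wild-type arrays (log2 difference -0.25 ± 0.26 SE). All 3 Pgk1 probe sets had this order of signs.

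Tpi1, triose phosphate isomerase, read 4488, 4477 and 2888 in the mutant and 2926, 4881 and 3832 in the wild type. The difference in pair 1, 0.61, was the greatest of the 14 genes in that pair. Pgam1, phosphoglycerate mutase, read 9740.5, 5962 and 4801 in the mutant and 7304, 8116 and 5383 in the wild type. Pkm, pyruvate kinase, read 14282, 11408 and 6148 in the mutant and 12989, 12102 and 6858 in the wild type. Assay 3 lay far below the other assays for Pkm in both groups, whereas its pair differences were 0.14, -0.085 and -0.16.

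Lactate formation and export followed the same order. Ldha, the lactate dehydrogenase subunit that favours lactate, read 4759, 4096 and 3141 in the mutant and 4107, 4742 and 3968 in the wild type. The mutant was higher in pair 1 and lower in pairs 2 and 3, with a mean difference of -0.11 ± 0.18 SE on the log2 scale. Slc16a3, the lactate exporter MCT4, was dim at 72.1, 48.6 and 31.1 in the mutant and 50.8, 54.9 and 32.3 in the wild type, again with the mutant higher in pair 1 only. Gapdh, which oxidises the triose, was measured by 3 control probe sets that stayed out of the test. The brightest of them, at the 5′ end, read 25719, 12922 and 14085 in the mutant and 22702, 18266 and 16975 in the wild type, with the same order of signs. Eno2, the neuronal enolase, read 6.90 to 15.7 on all arrays, where the array medians were 8.86 to 9.38.

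The HIF genes had no common order of signs. The medians of the 11 genes tested were 0.026, 0.078 and -0.081 in pairs 1, 2 and 3 and 0.018 for the mean of the pairs. Of the 11, 1 was lower in every pair (Adm) and 1 was higher in every pair (P4ha1), shares that are near the 12% and 14.5% of all genes. The order seen in 8 of the 14 glycolytic genes was seen in 1 HIF gene, Ankrd37.

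Hif1a, the oxygen-regulated subunit itself, read 3864, 3492 and 5362 in the mutant and 3453, 4441 and 4921 in the wild type. Both arrays of assay 3 were the highest of the 6, and the groups overlapped (log2 difference -0.020 ± 0.22 SE; with a 95% interval of -0.40 to 0.36 in the fit with the block). Egln1, the main prolyl hydroxylase that marks HIF-1α for destruction, read 401, 578 and 194 in the mutant and 409, 520.4 and 205 in the wild type. On this probe set the groups were nearly equal within each assay, while assay 3 differed by -1.18 from the mean of the other assays on the log2 scale. The other kept Egln1 probe set differed by 0.47, -0.23 and -0.26 in pairs 1, 2 and 3. Egln3, the hydroxylase most strongly induced by HIF, read 4.90 to 5.06 on its brighter probe set and stayed at the floor on every array.

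The genes of mitochondria and metabolism among the HIF targets overlapped between the groups, and single pairs differed. Pdk1, the kinase that keeps pyruvate out of the mitochondrion, ranked first by p among the 25 genes in the fit without the block. With the block Ankrd37 did. Pdk1 read 483, 569 and 458 in the mutant and 361, 456 and 489 in the wild type. The differences were 0.41, 0.31 and -0.092 in pairs 1, 2 and 3 (log2 difference 0.21 ± 0.16 SE). Its other kept probe sets gave -0.026, -0.23 and 0.35 in pair 2. Bnip3, a mitophagy receptor, read 542, 720.1 and 743 in the mutant and 526, 967 and 741 in the wild type. It differed in pair 2 only. Car9, a carbonic anhydrase at the cell surface, read 64.7, 96.6 and 38.2 in the mutant and 112, 54.7 and 41.3 in the wild type, with differences of -0.67 and 0.67 in pairs 1 and 2.

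Among the secreted and matrix-related HIF targets, only Adm held a great difference, -2.52 in pair 3 on the log2 scale. On their brightest probe sets, Vegfa and P4ha1 differed by at most 0.30 and 0.14 in any pair. Adm encodes adrenomedullin, a peptide that widens vessels. It read 7.52, 6.93 and 9.31 in the mutant and 7.71, 9.17 and 129 in the wild type, so that wild-type array 3 alone stood above the array medians by far. Its second probe set read 76.3 on that array and 4.72 to 4.77 on the other 5. The mean difference of -0.89 ± 0.75 SE was -0.031 without wild-type array 3, and its size depends on the pseudocount. Markers of osteoclasts were also highest on that array: the summed intensity of 10 osteoclast markers was 27452 there, 8587 and 12063 on the other wild-type arrays and 1128 to 1892 on the mutant arrays. Of the 10, 8 passed the filter, and Oscar and Itgb3 did not. The stromal markers Dcn and Pdgfra rose on wild-type array 3 only, to 62.9 and 18.6. The summed intensity of 13 stromal markers was highest on mutant array 3. The part of either cell type in the Adm value was not tested.

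Ankrd37, a small ankyrin-repeat protein and a HIF target in many cells, was dim too, with 7.81, 10.7 and 16.7 in the mutant and 7.39, 18.7 and 30.5 in the wild type. Like Adm, it read highest on wild-type array 3. The mean difference was -0.29 ± 0.28 SE, or -0.29 ± 0.14 SE with the block. Vegfa, the vessel growth factor, read 327, 294 and 295 in the mutant and 317, 236 and 336 in the wild type, which gave a difference of 0.054 ± 0.16 SE. P4ha1, a prolyl hydroxylase of collagen, read 447, 682 and 678 in the mutant and 423, 646 and 614 in the wild type. It was higher in each pair, by 0.078, 0.078 and 0.14, but these steps are small against the distance between assay 1 and the others.

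Ndrg1, a stress-induced growth regulator, read 212, 599 and 356 in the mutant and 338, 283 and 403 in the wild type. Pair 2 differed by 1.04 and pair 1 by -0.63, the widest range among the pairs of any gene but Adm. Of its 5 probe sets, 4 gave 0.38 or more in pair 2. Kdm3a, a histone demethylase induced by HIF, read 519, 575 and 793 in the mutant and 531, 601 and 711 in the wild type and was highest in assay 3 in both groups.

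The assay accounted for more of the variation than the receptor. Over the 14 glycolytic genes the assay held 84.2% of the total sum of squares and the group 2.76%, and over the 11 HIF genes 60.8% and 11.2%. Over all 10372 genes these shares were 81.1% and 8.75%. The sums were pooled over genes, so genes with a wide spread, such as Adm, weigh most. For Adm, high on wild-type array 3 alone, the shares were 43.2% for the assay and 21.1% for the group. The shares of the HIF genes without Adm were not computed. In 9 of the 14 glycolytic genes both arrays of assay 3 lay below all other arrays, which was so for 33.8% of all genes, and in 1, Pfkfb3, above them. Among the HIF genes 2 had both arrays of assay 3 below and 3 above, against 33.8% and 15.8% of all genes. The 2 were Egln1 and Car9, and the 3 were Hif1a, Kdm3a and Adm. On the log2 scale assay 3 differed from the mean of the others by -0.98 for Hk1, -0.96 for Pkm and -0.88 for Pfkl.

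Assay 3 also carried more signal of stromal cells. The summed intensity of 13 stromal markers was 7968 on mutant array 3, 5898 on wild-type array 3 and 237 to 501 on the other arrays. Of the 13, 7 passed the filter, none read 0, and Lum and Thy1 stayed at the floor. Dcn and Pdgfra rose on wild-type array 3 only, to 62.9 and 18.6, and read 4.61 and 5.64 on mutant array 3. The 9 macrophage markers all passed and summed to 141631 to 158972 on all 6 arrays. The part of the stromal signal in the assay differences of the glycolytic genes was not tested.

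**Figure D3:**
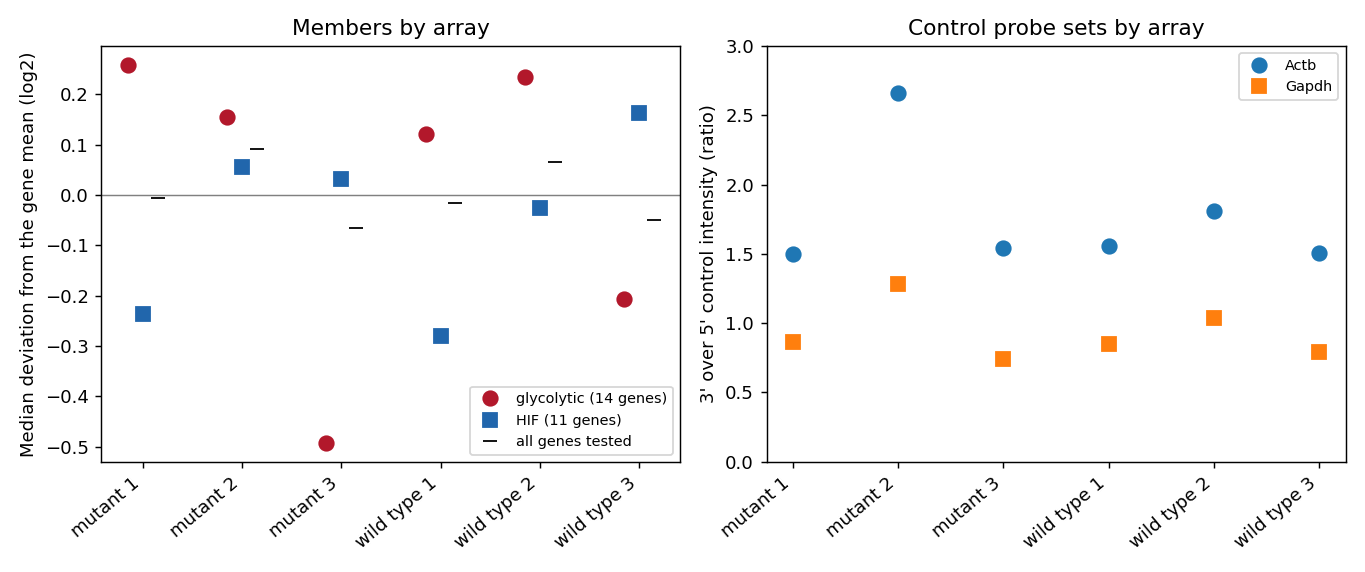
Left, median deviation from each gene's mean over the 6 arrays (log2) for the 14 glycolytic genes, the 11 HIF genes and all genes tested. Right, ratio of the 3′ to the 5′ control probe set of Actb and Gapdh on each array. The glycolytic median is -0.49 on mutant array 3 and -0.21 on wild-type array 3 and above 0 on the other 4, and the Actb ratio is highest on mutant array 2 at 2.66.

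Probe sets of 1 gene disagreed most in pair 2, where a measure of RNA quality also stood apart. The ratio of the 3′ to the 5′ control probe set of Actb, which rises when RNA is broken or copied incompletely, was 2.66 on mutant array 2 and 1.5 to 1.81 on the other arrays. For Gapdh it was 1.28 on mutant array 2 and 0.745 to 1.04 elsewhere. Of 14 genes with several kept probe sets, 7 had both signs among them in pair 2, against 4 in pair 1 and 3 in pair 3. Of their 26 dimmer probe sets, 21 were lower than the gene's brightest one in pair 2, which was so for 59.9% of such probe sets over all genes. In pairs 1 and 3 the counts were 10 and 12 of 26, against 49.1% and 47.3%.

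Single genes show the size of this disagreement. The third probe set of Hif1a read 22.9 on mutant array 2 and 110.5 on wild-type array 2, a difference of -1.70, whereas the brightest gave -0.35. The second probe set of P4ha1 read 49.8 and 125 there, a difference of -1.10, against 0.078 for the brightest. For Vegfa, Hk1 and Pfkp the dimmer kept probe sets gave -0.81, -0.68 and -0.68 in pair 2 and the brightest 0.30, 0.11 and 0.047. When all kept probe sets of a gene were averaged, the glycolytic median of pair 2 was -0.27 in place of -0.13, and the HIF median -0.13 in place of 0.078. The part of RNA quality in these values was not tested.

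**Figure D4:**
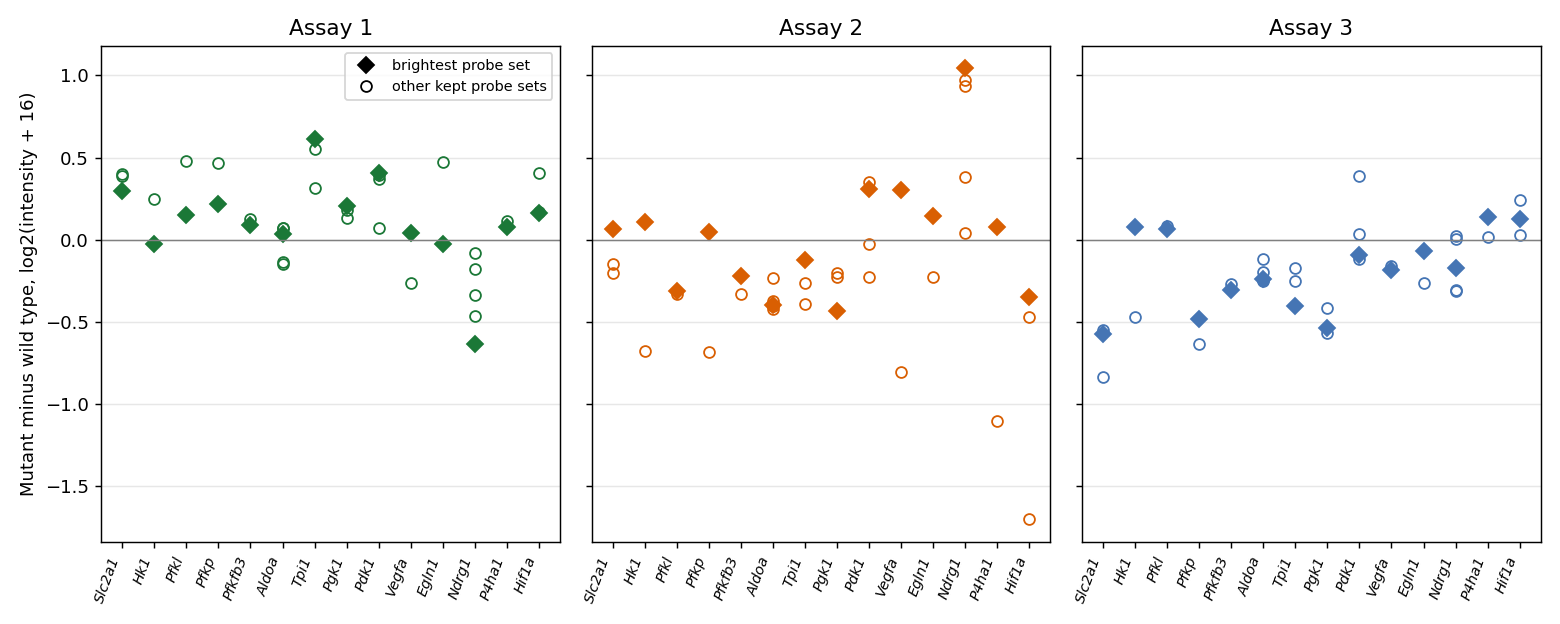
Difference between mutant and wild type on the log2(intensity + 16) scale for the brightest probe set (diamonds) and the other kept probe sets (open circles) of the 14 genes with several, by assay. In assay 2 the open circles of Hk1, Pfkp, Vegfa, P4ha1 and Hif1a lie far below the diamonds.

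Of the other genes of the pathway, 17 further glycolytic genes were tested, and 0 passed limma over all probe sets. The mutant mean was lower for 7 and higher for 10, and the median difference was 0.094 on the log2 scale. In every pair 4 were lower and 2 higher, against 12% and 14.5% of all genes. Slc2a6, a hexose transporter of lysosomes in macrophages, read 159.6, 139.7 and 337 in the mutant and 281, 304 and 558 in the wild type. It was lower in every pair, with differences of -0.76, -1.04 and -0.70 (log2 difference -0.83 ± 0.42 SE; limma with the block, adjusted p = 0.859). Eno3, the muscle enolase, was higher in every pair, by 0.52, 0.42 and 0.42 (0.45 ± 0.29 SE without the block). In limma with the block its p was 0.0044 before adjustment and 0.859 after it. Ldhb, the subunit that favours pyruvate, was dim and differed by -0.24 ± 0.11 SE, and Pfkfb2 by 0.18 ± 0.11 SE.

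The list of genes that govern the entry of pyruvate into mitochondrial metabolism holds opposing functions, and none passed. Of 11 tested, 9 had a lower mean in the mutant, and the median was -0.20. Pairs 1 to 3 gave medians of -0.088, -0.25 and -0.34. In every pair 5 were lower and 2 higher, against 12% and 14.5% of all genes. Pdk3, a kinase that inhibits pyruvate dehydrogenase, read 102, 122 and 79.5 in the mutant and 129.8, 146 and 129 in the wild type, without overlap (log2 difference -0.38 ± 0.16 SE). Over all genes, 1.96% were lower in the mutant without overlap. Pdhb and Dlat, subunits of pyruvate dehydrogenase, differed by -0.29 ± 0.17 SE and -0.22 ± 0.13 SE, lower in every pair. Pcx, pyruvate carboxylase, differed by -0.62 ± 0.40 SE and read 11.8 on mutant array 3. The 2 genes higher in every pair were Pdp1 and Pdp2, phosphatases that activate pyruvate dehydrogenase, at 0.24 ± 0.37 SE and 0.34 ± 0.33 SE, and they are named after their values were seen.

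The side branches of glycolysis showed no common direction. Of 7 pentose phosphate genes tested, 4 were lower and 3 higher on the mean, with a median of -0.066. H6pd, the hexose dehydrogenase of the endoplasmic reticulum, was higher in every pair (0.31 ± 0.40 SE without the block). In limma with the block its p was 0.015 before adjustment and 0.859 after it. Rpia, an isomerase of pentoses, differed by -0.19 ± 0.34 SE without the block. Of 7 glycogen genes, 4 were lower and 3 higher, with a median of -0.026. Pygl, glycogen phosphorylase, read 4329 on wild-type array 2 and 1912 to 2271 elsewhere, and Ugp2, which makes UDP-glucose, differed by 0.27 ± 0.27 SE.

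Of 13 further genes of the HIF system, 4 were lower and 9 higher, with a median of 0.022. Crebbp, a coactivator of HIF, differed by 0.16 ± 0.18 SE, and Cited2, which competes with HIF-1α for it, by -0.21 ± 0.26 SE. Among 10 genes of MYC and mTORC1, regulators that also raise glycolytic genes, 5 were lower and 5 higher. Mycn, a MYC family factor, read 2543, 6828 and 4417 in the mutant and 1616, 649 and 3977 in the wild type, higher in every pair with most of the difference in pair 2 (1.39 ± 0.74 SE). Rheb, the activator of mTORC1, differed by 0.14 ± 0.16 SE. None of the genes in these lists passed limma over all probe sets, with or without the block.

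Of 26 other HIF targets tested, 13 were lower and 13 higher, with a median of -0.008. In every pair 5 were lower and 7 higher, against 12% and 14.5% of all genes. Bhlhe40, a repressor of transcription of the circadian and hypoxia responses, read 206, 114 and 30.4 in the mutant and 426, 316 and 737 in the wild type. It was lower in the mutant without overlap, as were 1.96% of all genes. The Bhlhe40 differences were -0.99, -1.35 and -4.02 in pairs 1, 2 and 3 (log2 difference -2.12 ± 0.65 SE; limma, adjusted p = 0.99998). P4ha2, another prolyl hydroxylase of collagen, was higher in every pair by 0.30, 0.16 and 0.37 (0.28 ± 0.15 SE). Without both arrays of assay 3 the Bhlhe40 difference was -1.17. Wsb1, a substrate receptor of a ubiquitin ligase, differed by 0.30 ± 0.19 SE.

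**Figure D5:**
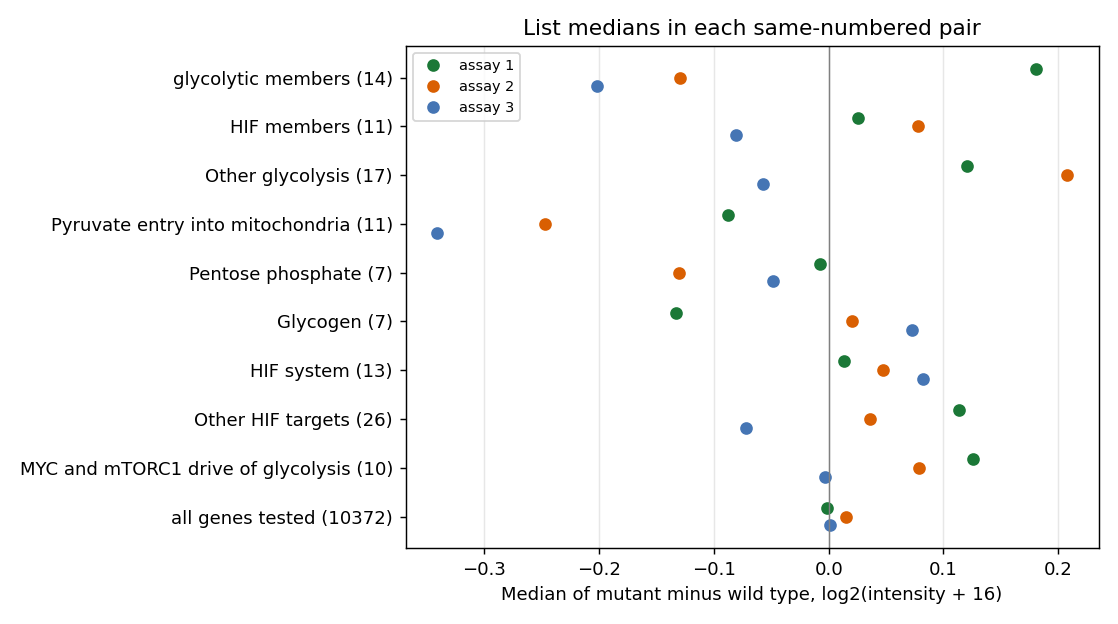
Median difference between mutant and wild type in each assay, on the log2(intensity + 16) scale, for the members, the other lists of the pathway and all genes tested, with the number of genes in brackets. The median of the pyruvate entry genes is below 0 in all 3 assays, and that of the glycolytic members is above 0 in assay 1 and below 0 in assays 2 and 3.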

How the data were processed

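The authors deposited intensities, 1 per probe set and array, on a linear scale. GCOS and GCRMA are named, with no version or order, per the submitters' processing notes. A GCRMA table is already normalized, with dim probe sets pressed to a floor. Upper quartiles ran from 160.5 to 164 over the 6 arrays, and the values were used without renormalizing. The table had 45101 probe sets, of which the tests left out 64 controls. The annotation gave 1 symbol for 34945 of the rest, several for 932 and none for 9160. Groups and replicate numbers came from the sample titles.

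Values were taken as log2(intensity + 16), so fold changes of dim genes are understated. Probe sets above the median of their own array on at least 3 of 6 arrays were kept (22497). Mutant minus wild type was tested in limma 3.58.1 under R 4.3.3 by a moderated two-sided linear model fit, with Benjamini-Hochberg adjustment over all probe sets kept and a threshold of 0.05. The fit was tested on simulated data. Deviations from the group means correlated at 0.797, 0.671 and 0.845 between same-numbered arrays and at -0.618 to -0.0138 between others, and same-numbered arrays were therefore treated as pairs. The labels name 3 independent assays without saying which array belongs to which. Alternatives were other pseudocounts, filters and scalings, the mean of a gene's probe sets, the replicate number as a block, and leaving out arrays.

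The genes and lists were chosen with earlier results of these data known. The naming rule gave array values for genes without overlap, or with 1 direction in all pairs and a mean of at least 0.3, for the 2 smallest p and the brightest gene of each list. Array values of the other members were added after seeing the data. From each further list up to 4 genes with the smallest p were named. Motif letters were searched in the RefSeq promoter table of GRCm38.p6.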

Additional observations from a re-analysis of the deposited data

How the results depend on the processing

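Under the alternatives run, limma called 0 of the 25 genes and 0 genes of the other pathway lists. Over all probe sets it called 0 under each alternative on probe sets except the replicate number as a random block, where it called 1, Gpc1, which is in none of these lists and is named here after its value was seen. The fixed replicate block changed no call, and its smallest adjusted p over all probe sets was 0.0792. The median of the HIF genes was -0.11 with each gene as the mean of its probe sets, and ran from -0.18 to 0.089 when 1 array or both arrays of an assay were left out, -0.18 without mutant array 2. That of the glycolytic genes ran from -0.24 to 0.23, with 0.23 without mutant array 3. As the mean of their probe sets, Hk1 (-0.12), Vegfa (-0.18) and P4ha1 (-0.11) turned lower, Tpi1 (-0.014) turned lower and Pfkl (0.024) higher. The sign of most members, and of Pygl and Rpia from the glycogen and pentose phosphate lists, turned when arrays were left out, where the log2 difference ran from -0.44 to 0.060 for Aldoa, -0.35 to 0.082 for Bnip3, -0.37 to 0.31 for Car9, -0.35 to 0.43 for Egln1, -0.20 to 0.14 for Hif1a, -0.28 to 0.37 for Hk1, -0.031 to 0.39 for Hk2, -0.15 to 0.14 for Kdm3a, -0.27 to 0.052 for Ldha, -0.40 to 0.44 for Ndrg1, -0.088 to 0.29 for P4ha1, -0.62 to 0.22 for Pfkfb3, -0.073 to 0.29 for Pfkfb4, -0.35 to 0.37 for Pfkl, -0.26 to 0.25 for Pfkp, -0.35 to 0.16 for Pgam1, -0.32 to 0.32 for Pkm, -0.60 to 0.044 for Pygl, -0.42 to 0.092 for Rpia, -0.15 to 0.30 for Slc16a3, -0.29 to 0.22 for Slc2a1, -0.26 to 0.25 for Tpi1 and -0.094 to 0.17 for Vegfa. The count of glycolytic genes higher in pair 1 and lower in pairs 2 and 3 was 8 of 14 with a pseudocount of 1 or 64, quantile normalization or median centring, alternatives added after seeing the data, and 10 with genes as means of probe sets. With the filter at the 70th percentile, Slc16a3, Adm, Ankrd37 and Car9 were too dim and gave no value. The number of arrays and the floor of dim probe sets, such as those of Adm, Ankrd37 and Slc16a3, limit the precision.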
